A study of Mus musculus with 82 samples.

Results

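The comparison described here is that of old haematopoietic stem cells (HSCs) carrying a control shRNA, in culture against after transplantation. It was drawn by the sample labels alone and takes 4 of the 82 samples of the series, all libraries of polyA RNA: 2 of cultured cells (the cultured libraries) and 2 of cells recovered from recipients (the transplanted libraries). HSCs were sorted from the bone marrow of male C57BL/6J mice of 24 to 26 months, wild type by the labels, and all 4 samples carried the same lentiviral scramble shRNA with GFP, so that transduction and at least 20 to 24 h of culture are shared by both groups. For the cultured libraries, transduced cells were kept for 3.5 days in a serum-free medium with polyvinyl alcohol and cytokines, among them 10 ng/ml SCF, and GFP+ cells were sorted, with no further gate named in the paper. For the transplanted libraries, the cells went into lethally irradiated young female CD45.1 recipients after 20 to 24 h in that medium, and more than 4 months later GFP+ CD45.2+ cells of the gate Lin- Sca-1+ c-Kit+ CD48- CD150+ were sorted, each library from a pool of 2 to 4 recipients.

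Several differences run alongside the comparison. For the sort of the cultured cells the paper names GFP and no other gate, so they may include progeny that no longer has an HSC surface phenotype. The transplanted cells were sorted back to that phenotype, are descendants of the cells that were transplanted, and had been in an irradiated young host for months. The labels name the same column purification and the same Takara cDNA kit for both groups, whereas the methods give phenol-chloroform extraction, another Takara kit and a NovaSeq instrument for the transplanted cells. For the cultured cells the methods name none of these. The methods give carbon dioxide and oxygen together at a low percentage for the culture, so that oxygen may have been below that of air. An effect of culture on each cell, of the composition of the sorted cells, of the host, and of the extraction and kit therefore cannot be told apart in any value below. In bulk RNA, fewer cells of a type and less RNA per cell cannot be told apart either. For the cultured libraries nothing in the labels says that the samples came from separate cultures, so p-values measure only the spread between these samples.

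As a further reference, the 8 libraries of freshly sorted OHSCs (old HSCs, one mouse each, Lin- Sca-1+ c-Kit+ CD34- Flk2- CD150+, never cultured or transduced) are given beside the 4 libraries. They were made by column purification with the kit that the labels name and sequenced on a HiSeq instrument. The same contrast was repeated in the 4 libraries of old HSCs carrying shRNA1 and the 4 carrying shRNA2, both of which target a short variant of Btaf1.

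HSCs in the marrow divide rarely. They are held in the niche by adhesion molecules and by growth factors bound to stromal cells, and their mRNA is known for low levels of cell cycle and lipid synthesis genes beside transcription factors such as Hlf, Mecom and Meis1. In culture, cytokines signal through JAK2 and STAT5, and SCF signals through c-Kit. Cells short of cholesterol process the membrane-bound transcription factor SREBP2, which switches on the enzymes that make cholesterol, and SREBP1 does the same for fatty acids. Cell cycle genes are repressed in resting cells through E2F sites in the promoters of the DNA replication genes and through cell cycle homology region (CHR) sites in those of the mitosis genes.

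Promoter sequences are printed here for the genes on which the account below turns, because their letters show the elements for which these pathways are known. They are taken from RefSeq (GRCm38.p6), run 5′ to 3′ on the strand of the gene, and reach at most 30 bases past the annotated start. Capitals mark the motif named, on either strand. The promoter of Hmgcs1, which makes HMG-CoA in the cholesterol pathway (chr13:119690101-119690380, + strand), had the only match to the sterol element TCACNCCAC among the 17 cholesterol genes with a promoter in the table, and 4 matches to the CCAAT box (ATTGG on the opposite strand):
Hmgcs1: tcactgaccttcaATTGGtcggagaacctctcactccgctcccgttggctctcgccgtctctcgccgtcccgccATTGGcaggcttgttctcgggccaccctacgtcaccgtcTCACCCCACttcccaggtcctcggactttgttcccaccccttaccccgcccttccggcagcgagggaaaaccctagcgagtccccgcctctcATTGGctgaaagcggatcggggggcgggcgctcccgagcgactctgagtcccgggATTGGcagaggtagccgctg
The CCAAT box stood in 16 of those 17 promoters (94.1%) and in 41.1% of all 27025 genes with a promoter of the same 300 bases, and the sterol element in 5.9% of them against 1.4% of all genes. Idi1 (chr13:8885536-8885635, + strand) and Insig1 (chr5:28071162-28071261, + strand) are shown with their CCAAT boxes:
Idi1: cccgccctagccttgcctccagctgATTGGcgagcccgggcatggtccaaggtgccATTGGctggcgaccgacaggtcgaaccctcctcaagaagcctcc
Insig1: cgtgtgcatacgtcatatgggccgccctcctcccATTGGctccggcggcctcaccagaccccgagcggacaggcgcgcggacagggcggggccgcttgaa

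The CHR motif TTTGAA, searched on both strands, was found in 18 of the 25 mitosis genes with a promoter (72%) against 20.2% of all genes. It is shown for Mki67 (chr7:135716425-135716524), Top2a (chr11:99024160-99024259) and Cdk1 (chr10:69352883-69352982), all on the - strand, and the Cdk1 window opens inside a further match:
Mki67: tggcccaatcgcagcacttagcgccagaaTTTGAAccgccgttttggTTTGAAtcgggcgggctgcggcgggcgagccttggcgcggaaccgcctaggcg
Top2a: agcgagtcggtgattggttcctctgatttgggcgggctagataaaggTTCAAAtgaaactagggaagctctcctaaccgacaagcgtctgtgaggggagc
Cdk1: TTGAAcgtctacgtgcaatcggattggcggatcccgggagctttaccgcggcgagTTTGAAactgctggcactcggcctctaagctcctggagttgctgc
Among the 29 DNA replication genes with a promoter, the E2F motif TTTGGCGC was in 6 (20.7%) against 0.6% of all genes, and TTTCCCGC in 5 (17.2%) against 1.2%. The helicase subunit gene Mcm5 (chr8:75109314-75109413, + strand) carries the first of these on the opposite strand:
Mcm5: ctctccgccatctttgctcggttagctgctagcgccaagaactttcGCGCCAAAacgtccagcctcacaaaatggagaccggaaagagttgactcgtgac

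The amino acid response motif TGATGNAA was in 9 of the 27 ATF4 response genes with a promoter (33.3%) against 4.5% of all genes, and is shown for Chac1 (chr2:119351003-119351102, + strand), Asns (chr6:7693180-7693279, - strand) and Slc7a11 (chr3:50443607-50443706, - strand):
Chac1: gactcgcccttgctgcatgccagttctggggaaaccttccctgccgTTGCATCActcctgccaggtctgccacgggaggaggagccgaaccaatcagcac
Asns: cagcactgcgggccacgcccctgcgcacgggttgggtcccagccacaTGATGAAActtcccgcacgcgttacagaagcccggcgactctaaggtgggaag
Slc7a11: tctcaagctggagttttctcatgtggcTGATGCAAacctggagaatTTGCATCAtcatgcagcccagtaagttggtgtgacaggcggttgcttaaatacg
The core of the interferon-stimulated response element, TTTCNNTTT, was in 18 of the 25 interferon response genes with a promoter (72%) against 12.1% of all genes, and is shown for Ifit3 (chr19:34583361-34583460, + strand):
Ifit3: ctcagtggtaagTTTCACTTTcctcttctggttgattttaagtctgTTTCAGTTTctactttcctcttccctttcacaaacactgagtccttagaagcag
These matches are letters in a window, and no measurement of binding in the 4 libraries goes with them.

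Levels below are CPM, the reads of a gene with every library scaled to the same total, after TMM scaling, which corrects for a few genes taking a large share of the reads. They serve to compare libraries for a gene, not genes with each other. Differences are log2 fold changes, culture minus transplantation, with their standard error (SE), and adjusted p is the Benjamini-Hochberg value of the quasi-likelihood test of edgeR over all genes tested. Genes were called higher or lower in culture where the fold was over 1.5 and the adjusted p under 0.05. Of 19518 genes tested, 2458 (12.6%) were higher and 2976 (15.2%) lower in culture, with 582 and 698 of them differing by more than 4-fold, and the median log2 fold change of all genes tested was -0.011. With shRNA1 in place of the control, 2188 of 19689 genes (11.1%) were higher and 2629 (13.4%) lower, and with shRNA2 2403 of 19629 (12.2%) were higher and 2735 (13.9%) lower. The shRNA1 and shRNA2 libraries share no sample with the controls, and 1497 of the 2458 genes higher with the control (60.9%) and 1586 of the 2976 lower (53.3%) were called in the same direction with both shRNAs.

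**Figure D1:**
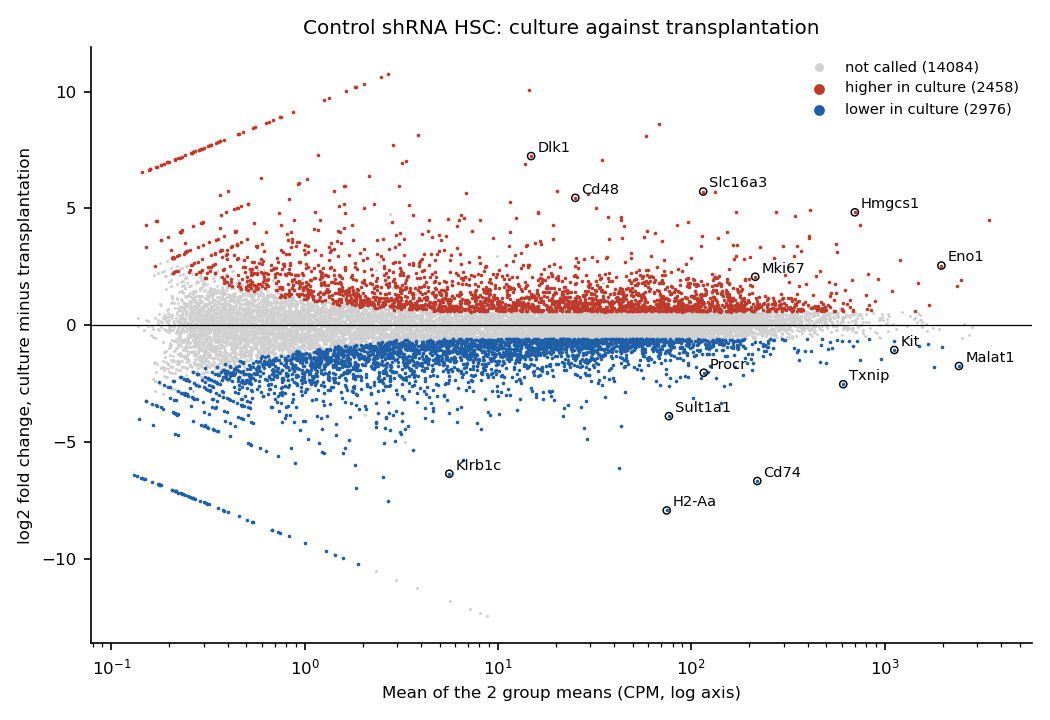
Each point is a gene tested, where the x axis gives the mean of both group means in CPM on a log axis and the y axis the log2 fold change, culture minus transplantation, over 2 libraries each, with 2458 genes called higher in red, 2976 called lower in blue and named genes circled. The straight rows of points at the outer left belong to genes with no read in one of the groups, whose fitted fold changes are not bounds, and the grey points at the lowest fold changes are genes with no read in culture whose transplanted libraries differed.

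The 4 libraries held 37292602 to 42737054 reads on genes, and depth did not separate the groups. Genes with a read were slightly fewer in culture, at 24691 and 24478 against 25332 and 24999. The fresh libraries held 22175623 to 24654742 reads and 32867 to 42539 genes with a read. Mitochondrial genes took 0.53 to 0.54% of reads in culture and 0.77 to 0.83% after transplantation. The biological coefficient of variation was 5.76% between the cultured libraries and 13.9% between the transplanted ones. The transplanted libraries differed in granulocyte and globin mRNA and the cultured ones in NF-kB target mRNA, and the values are given with the genes concerned. Granulocyte and B and T cell markers as a whole are described further on. Male-specific mRNAs, which the female host lacks, were present in both groups, Ddx3y at 124 and 125 CPM in culture and at 130.2 and 108 CPM after transplantation (not called). Xist, known for its expression in female cells, was at 1.11 and 0.985 CPM in culture and at 2.62 and 4.58 CPM after transplantation (3.42-fold lower, adjusted p = 0.00282), with a lowest, median and highest level of 3.25, 5.03 and 8.74 CPM in the male fresh libraries.

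**Figure D2:**
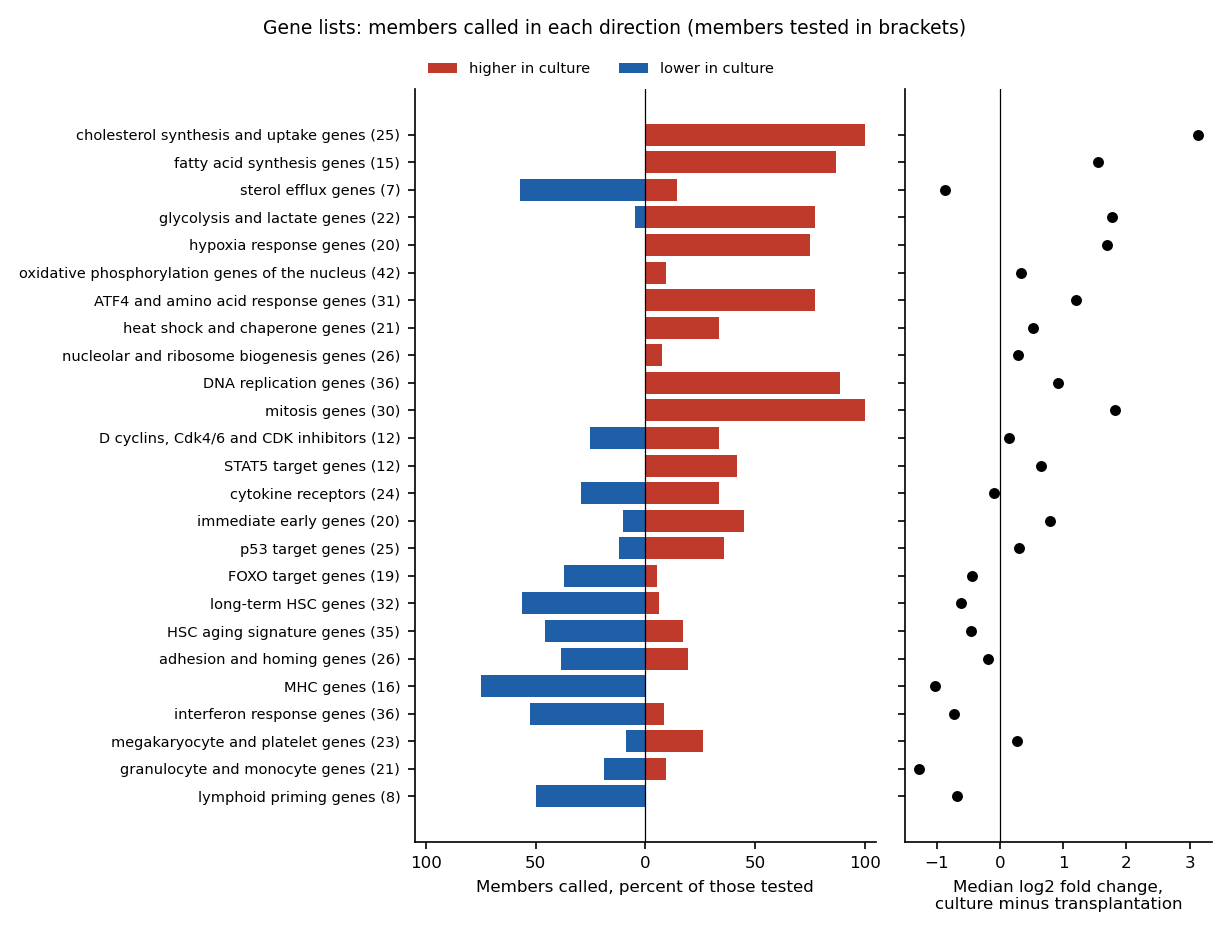
Bars give the percent of tested members called higher in culture (red, right) or lower (blue, left) for 25 gene lists, with the number tested in brackets, and black points give the median log2 fold change of the members. The cholesterol and mitosis lists have every member tested higher, at medians of 3.13 and 1.81, and the MHC list has 12 of 16 lower.

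Genes of cholesterol synthesis and uptake were higher in culture throughout. Of 25 members, all tested, 25 were higher and none lower, against 12.6% and 15.2% of all genes tested, the background of every list count in this contrast, and their median log2 fold change was 3.13 against -0.011 for all genes. For list counts with shRNA1 the background is 11.1% higher and 13.4% lower, and with shRNA2 12.2% higher and 13.9% lower. Hmgcs1, which makes HMG-CoA, was at 1356 and 1355 CPM in the cultured libraries and at 50.0 and 44.9 CPM in the transplanted ones, 28.5-fold higher (log2 4.84 ± 0.06, adjusted p = 8.99e-10). The enzymes that follow behaved alike, from Idi1 at 208 and 203 against 21.1 and 17.7 CPM through the squalene synthase Fdft1 at 317 and 316 against 29.8 and 28.3 CPM. Lss, which closes the sterol rings, was at 690.1 and 628 against 28.9 and 22.5 CPM (25.6-fold higher), and Cyp51, which demethylates lanosterol, at 765 and 752 against 60.6 and 51.9 CPM (13.5-fold higher). In each of these genes both cultured libraries lay far above both transplanted ones, and the cultured libraries were nearly level with each other.

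Insig1, whose product holds SREBP2 in the endoplasmic reticulum when sterols are plentiful, was at 259.7 and 268 CPM in culture and at 52.5 and 47.1 CPM after transplantation (5.29-fold higher, log2 2.40 ± 0.07, adjusted p = 3.40e-08). Srebf2, which encodes SREBP2 itself, had the smallest difference of the list, at 571 and 545 against 312 and 319.9 CPM (1.77-fold higher). In fresh OHSCs, Hmgcs1 had a lowest, median and highest level of 29.8, 36.5 and 40.2 CPM in the 8 fresh libraries. Against fresh OHSCs, 25 of 25 members were higher in culture (all genes: 19.5% of 23698 higher and 36.5% lower), and 1 was higher and 1 lower after transplantation (all genes: 9.59% higher and 27.9% lower). The list was 25 of 25 higher with shRNA1 and with shRNA2 as well.

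The sterol efflux list, whose products export cholesterol or answer to the oxysterol receptor, had 4 of 7 members lower and 1 higher, at a median of -0.88. With shRNA1 and with shRNA2 it had 2 lower and 2 higher, at medians of -0.10 and 0.03. The transporter gene Abca1 was at 16.0 and 15.3 CPM in culture and at 45.6 and 73.1 CPM after transplantation (3.78-fold lower, adjusted p = 8.48e-04), and Apoe, a lipoprotein of exported cholesterol, was at 257 and 274 against 554 and 573 CPM (2.12-fold lower, adjusted p = 6.44e-07). Mylip, a target of the oxysterol receptor, was at 12.7 and 9.94 against 21.1 and 20.5 CPM (1.84-fold lower). The other transporter gene of the list, Abcg1, did not pass the test, at 49.0 and 46.9 against 49.0 and 44.3 CPM.

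Fatty acid synthesis genes were also higher in culture, 13 of 15 with none lower (1 lower without the second cultured library), at a median of 1.55. The desaturase gene Scd1, which puts the first double bond into fatty acids, was at 268 and 254 CPM in culture and at 5.28 and 4.81 CPM after transplantation (51.6-fold higher, log2 5.69 ± 0.08, adjusted p = 1.20e-09). Its paralog Scd2 was at 2114 and 2068 against 303 and 293 CPM (7.02-fold higher). Acly, which makes cytosolic acetyl-CoA, was at 1408 and 1286 against 301 and 293 CPM (4.54-fold higher), the fatty acid synthase gene Fasn at 738 and 690.3 against 150.2 and 186 CPM (4.25-fold higher), and Fads2, a desaturase of long polyunsaturated fatty acids, at 782 and 753 against 155 and 156 CPM (4.93-fold higher). Srebf1, which encodes SREBP1, was at 211 and 199 against 76.2 and 84.4 CPM (2.55-fold higher). The 2 members not called were below 2 CPM in every library.

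Glycolysis formed the next block of genes higher in culture. Of 22 members, 17 were higher and 1 lower, at a median of 1.76. The glucose transporter gene Slc2a1 was at 208 and 211 CPM in culture and at 46.4 and 44.1 CPM after transplantation (4.63-fold higher, adjusted p = 3.00e-08), and Hk2, the inducible hexokinase, was at 199 and 189.7 against 54.7 and 66.8 CPM (3.20-fold higher). Further along the pathway, Aldoc was at 259.7 and 254 against 20.8 and 17.2 CPM (13.5-fold higher), Eno1 at 3396 and 3327 against 563 and 581 CPM (5.87-fold higher) and Pkm, the pyruvate kinase, at 4005 and 3869 against 969 and 1063 CPM (3.88-fold higher). The groups lay apart without overlap in all of these.

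The largest difference of the list was that of Slc16a3, the lactate exporter MCT4, at 227 and 225 CPM in culture and at 4.17 and 4.38 CPM after transplantation (52.9-fold higher, log2 5.73 ± 0.07, adjusted p = 8.99e-10). In fresh OHSCs Slc16a3 had a lowest, median and highest level of 3.89, 5.23 and 5.59 CPM. Ldha, which makes lactate from pyruvate, was at 3611 and 3631 against 1136 and 1120.3 CPM (3.21-fold higher), whereas Ldhb, the isoform of oxidative tissues, was the member lower in culture, at 62.2 and 60.0 against 121 and 117 CPM (1.95-fold lower, adjusted p = 4.72e-06). The other 4 members were not called.

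The hypoxia response list had 15 of 20 members higher and none lower, at a median of 1.70. Egln3, a prolyl hydroxylase that is itself a target of HIF-1, was at 185 and 180.3 CPM in culture and at 8.19 and 9.06 CPM after transplantation (21.2-fold higher, adjusted p = 4.04e-09). Vegfa, the vascular growth factor, was at 87.0 and 86.9 against 10.2 and 10.4 CPM (8.45-fold higher), Bnip3, which marks mitochondria for autophagy, at 353 and 359 against 48.8 and 46.7 CPM (7.46-fold higher), and Ankrd37 at 88.0 and 81.7 against 4.67 and 4.35 CPM (18.8-fold higher). Pdk1, which closes the entry of pyruvate into mitochondria, was at 345 and 333 against 132 and 152 CPM (2.39-fold higher). Hif1a was not called, at 137 and 125 against 87.9 and 89.8 CPM, and neither was the target Car9. Oxygen in the culture may have been below that of air, and its part in the hypoxia and glycolysis lists was not tested.

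Nuclear genes of oxidative phosphorylation were called in 4 of 42 cases, all higher (all genes: 12.6% higher and 15.2% lower), at a median of 0.33. Of 15 mitochondrially encoded genes, 2 were lower and none higher (all genes: 15.2% lower), at a median of -0.41, and 4 were lower without the second transplanted library. With shRNA1 2 of 15 were lower and with shRNA2 6 of 14. The cytochrome b gene mt-Cytb was at 1065 and 1048 CPM in culture and at 2005 and 1937 CPM after transplantation (1.87-fold lower, adjusted p = 4.97e-07). Levels of some of these genes in fresh OHSCs cannot be read beside the others, since mt-Co2 was at 22.3 and 22.1 and 24.005 and 21.5 CPM in culture and transplantation and at 0.116, 0.370 and 0.649 CPM in the fresh libraries.

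**Figure D3:**
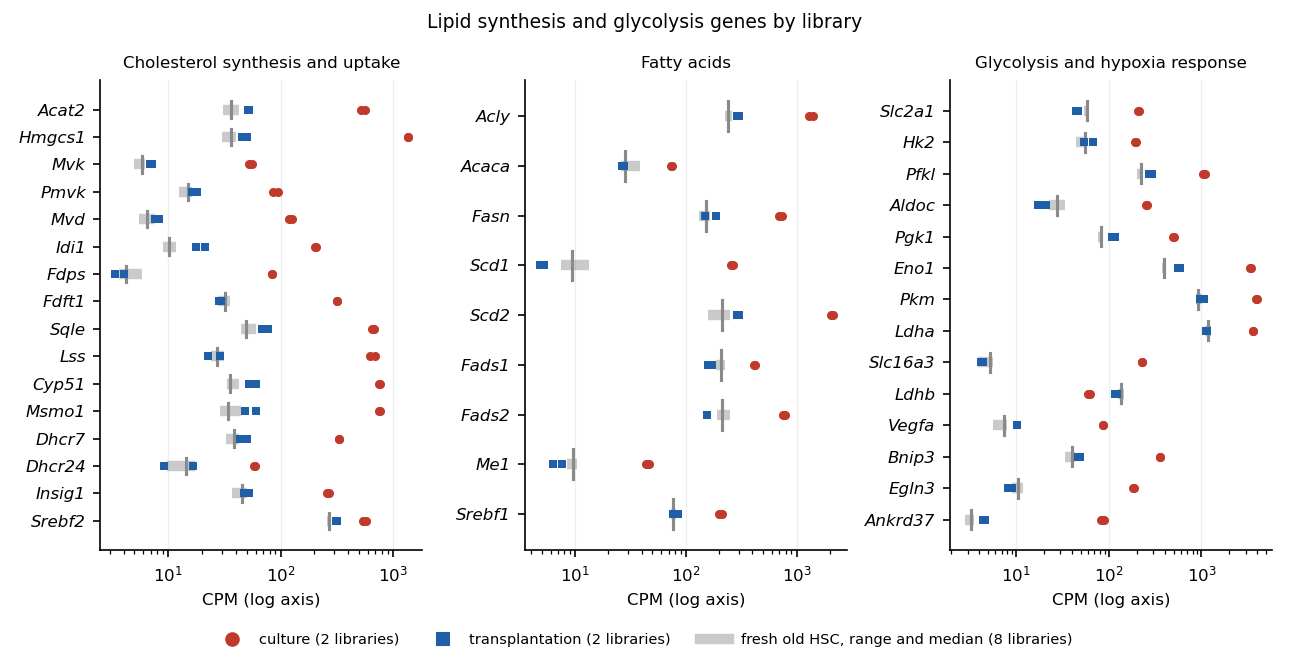
Levels in CPM on a log axis, 1 gene a row, with each cultured library as a red point, each transplanted library as a blue square, and the range and median of the 8 fresh old libraries as a grey bar and tick. In cholesterol, fatty acid and glycolysis genes except Ldhb the red points lie to the right of the blue squares, and the blue squares lie at or near the grey bars.

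Genes of the ATF4 programme, which supplies amino acids and charged tRNAs when these run short, were higher in 24 of 31 cases with none lower, at a median of 1.21. Chac1, which degrades glutathione, was at 12.2 and 13.4 CPM in culture and at 0.496 and 0.557 CPM after transplantation (24.2-fold higher, log2 4.60 ± 0.22, adjusted p = 9.01e-07). The cystine transporter gene Slc7a11 was at 27.9 and 33.4 against 2.37 and 2.63 CPM (12.2-fold higher, adjusted p = 5.16e-07), and Mthfd2, of mitochondrial folate metabolism, at 109.6 and 111 against 12.8 and 15.6 CPM (7.78-fold higher). Asns, which makes asparagine, was at 218 and 222 against 69.4 and 59.6 CPM (3.41-fold higher), and the amino acid transporter gene Slc7a5 at 306 and 293 against 71.9 and 86.7 CPM (3.78-fold higher). Atf4 itself was at 122 and 137 against 52.4 and 59.9 CPM (2.31-fold higher, adjusted p = 8.41e-06). Atf3 had no read in either transplanted library and was at 3.85 and 4.28 CPM in culture, at least 113-fold higher against a floor of 3 reads over both transplanted libraries.

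Of the chaperone list 7 of 21 members were higher and none lower, at a median of 0.52. The called members were those of the endoplasmic reticulum together with Hsp90aa1, a chaperone of the cytosol that stood at the fold threshold and fell under it without the second library of either group (log2 down to 0.54). Xbp1, the transcription factor of the unfolded protein response, was at 821 and 803 CPM in culture and at 232 and 216 CPM after transplantation (3.63-fold higher), and Hspa5, the chaperone BiP, at 1207 and 1196 against 617 and 544 CPM (2.07-fold higher). The heat shock gene Dnajb1 was at 147 and 153 against 146 and 141 CPM and was not called. Nucleolar and ribosome biogenesis genes were called in 2 of 26 cases, Npm1 and the spermidine synthase gene Srm, both higher (all genes: 12.6% higher). Their median was 0.28, and Myc, which drives this programme, was not called, at 277 and 308 against 413 and 399 CPM.

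Cell cycle genes were higher in culture as a block. Of 36 DNA replication genes 32 were higher and none lower, at a median of 0.92, and of 30 mitosis genes 30 were higher, at a median of 1.81. Mki67, the proliferation marker Ki-67, was at 343 and 349.9 CPM in culture and at 66.1 and 98.3 CPM after transplantation (4.22-fold higher, log2 2.08 ± 0.21, adjusted p = 0.00273). Top2a, the topoisomerase of dividing cells, was at 548 and 546 against 144 and 199 CPM (3.19-fold higher), Cdk1, the kinase of mitotic entry, at 153 and 154 against 37.8 and 49.8 CPM (3.51-fold higher), and Plk1, the mitotic kinase with the largest fold change of the list, at 111 and 113 against 16.5 and 23.8 CPM (5.58-fold higher, adjusted p = 2.18e-05). The cultured libraries were nearly level with each other, while the second transplanted library lay above the first in all 30 mitosis genes.

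Among replication genes, Ccne1, the cyclin of S phase entry, was at 27.3 and 26.8 CPM in culture and at 5.73 and 8.18 CPM after transplantation (3.90-fold higher, adjusted p = 2.53e-05), Rrm2, which makes deoxynucleotides, at 276 and 270.4 against 79.0 and 90.7 CPM (3.22-fold higher), and Mcm5 at 370.4 and 364 against 160.2 and 170.0 CPM (2.22-fold higher). Fold changes of replication genes ran from 0.11 to 1.96 on the log2 scale and those of mitosis genes from 0.89 to 2.48. The transplanted libraries in turn lay above fresh OHSCs: Mki67 had a lowest, median and highest level of 25.2, 30.6 and 41.6 CPM there and Cdk1 of 11.4, 14.8 and 18.2 CPM. Against the fresh libraries, 30 of 30 mitosis genes were higher in culture, at a median of 3.56 (all genes: 19.5% higher), and 30 of 30 after transplantation, at a median of 1.57 (all genes: 9.59% higher).

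D cyclins and CDK inhibitors differed member by member, with 4 of 12 higher and 3 lower in culture. Ccnd1 was at 9.63 and 9.94 CPM in culture and at 49.3 and 52.7 CPM after transplantation (5.21-fold lower, adjusted p = 3.71e-07) and Ccnd2 at 365 and 354 against 670.5 and 744 CPM (1.97-fold lower), whereas Ccnd3 was at 434 and 422 against 256 and 245 CPM (1.71-fold higher). All 3 are D cyclins that activate CDK4 and CDK6 after growth factor signals. Cdkn1a, which encodes the inhibitor p21, was at 99.3 and 114 against 4.58 and 11.2 CPM (13.7-fold higher, log2 3.77 ± 0.47, adjusted p = 0.00973). This call was lost without either cultured library, where the spread comes from the transplanted ones alone (log2 3.87 and 3.68). Without the second transplanted library the log2 fold change of Cdkn1a was 4.54. Cdkn2b, which encodes p15, was at 5.23 and 6.50 against 0.361 and 0.405 CPM (15.2-fold higher, adjusted p = 1.17e-05). Cdkn1c, which encodes p57, an inhibitor known for quiescent HSCs, was lower, at 22.9 and 20.2 against 36.1 and 37.5 CPM (1.71-fold lower, adjusted p = 2.96e-04). Cdkn1b and Cdkn2a were not called.

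Targets of p53 gave 9 of 25 members higher and 3 lower, at a median of 0.30. Beside Cdkn1a they included Pmaip1, which encodes the death effector NOXA, at 2.32 and 2.53 CPM in culture and at 0.316 and 0.152 CPM after transplantation (10.1-fold higher, adjusted p = 2.88e-04, log2 3.34, with 3.97 without the first transplanted library), and Gtse1, Ckap2 and Psrc1, which are known also as genes of mitotic cells. Mdm2, the feedback inhibitor of p53, was not called, at 104 and 111 against 109 and 108 CPM. With at least 10 CPM in 2 libraries 6 of 15 members of the p53 list were higher and 3 lower. With shRNA1 14 of 25 were higher and 2 lower, and with shRNA2 13 were higher and 1 lower.

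Genes of long-term HSCs were lower in culture in 18 of 32 cases and higher in 2, against 15.2% and 12.6% of all genes, at a median of -0.62. Leaving out 1 library gave 16 to 18 lower, and 4 higher without the first transplanted one. With shRNA1 14 of the 32 were lower and 3 higher, and with shRNA2 14 were lower and 6 higher (all genes: 11.1% and 12.2% higher). The strongest decrease was that of Sult1a1, a sulfotransferase gene used as an HSC marker, at 9.38 and 9.91 CPM in culture and at 154 and 134 CPM after transplantation (14.9-fold lower, log2 -3.90 ± 0.09, adjusted p = 2.12e-08). Procr, which encodes the surface marker EPCR, was at 46.1 and 44.8 against 194 and 179 CPM (4.11-fold lower, log2 -2.04 ± 0.06, adjusted p = 8.60e-08). Mllt3, a maintenance factor of HSCs, was at 47.0 and 48.1 against 139 and 189.6 CPM (3.46-fold lower, adjusted p = 1.04e-04), and Hlf, a transcription factor of long-term HSCs, at 153 and 153 against 322 and 390.3 CPM (2.32-fold lower, adjusted p = 1.46e-05). Robo4, an adhesion receptor, was at 14.2 and 16.3 against 46.3 and 41.3 CPM (2.88-fold lower). These genes remained detected in culture, at levels between 9.65 CPM for Sult1a1 and 153 CPM for Hlf on average.

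Further members differed less or were not called. Mecom was at 210.3 and 208 against 301 and 358 CPM (1.57-fold lower, adjusted p = 1.90e-04), which fell under the fold threshold without the second transplanted library (log2 -0.52), and Meis1 at 446 and 445 against 676 and 696 CPM (1.54-fold lower). Gata2, a transcription factor of HSCs and progenitors, was at 409.7 and 392 against 409 and 455 CPM and Fgd5 at 81.2 and 80.4 against 78.0 and 102 CPM, and neither was called. Ctnnal1, whose product alpha-catulin marks HSCs, was higher in culture, at 126 and 126 against 40.0 and 54.9 CPM (2.65-fold higher, adjusted p = 1.71e-04), as was Ifitm1. Against fresh OHSCs, 18 of 32 members were lower and 2 higher in culture (all genes: 36.5% lower), and 11 were lower and none higher after transplantation (all genes: 27.9% lower).

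Genes of the surface proteins used for sorting were called in 5 of 8 cases, 2 higher and 3 lower (5 lower without the second transplanted library). Cd48, whose product is excluded by the gate of the transplanted cells but by no gate named for the cultured ones, was at 48.6 and 49.7 CPM in culture and at 1.26 and 0.962 CPM after transplantation (43.8-fold higher, log2 5.45 ± 0.15, adjusted p = 3.06e-08). Kit was at 734 and 721 against 1553 and 1483 CPM (2.09-fold lower, adjusted p = 2.87e-07) and Ly6a, which encodes Sca-1, at 103 and 106 against 185 and 175 CPM (1.72-fold lower), and both products are required by the gate of the transplanted cells. Slamf1, which encodes CD150 and is required by the same gate, was at 81.8 and 77.9 against 69.3 and 82.7 CPM and was not called. Cd34 was higher in culture, at 528 and 524 against 363 and 267 CPM (1.67-fold higher, log2 0.740, adjusted p = 0.0136). The call was lost without either cultured library, where the spread comes from the transplanted ones alone (log2 0.740 and 0.755), and without the second transplanted one (log2 0.54). Flt3, which encodes Flk2, was lower, at 4.42 and 4.59 against 37.4 and 26.7 CPM (7.11-fold lower). The gate of the transplanted cells used neither of them, whereas the methods give the HSCs of wild-type mice as sorted negative for CD34 and Flk2 at the start. The part of the sort in these differences cannot be told apart from that of the culture.

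**Figure D4:**
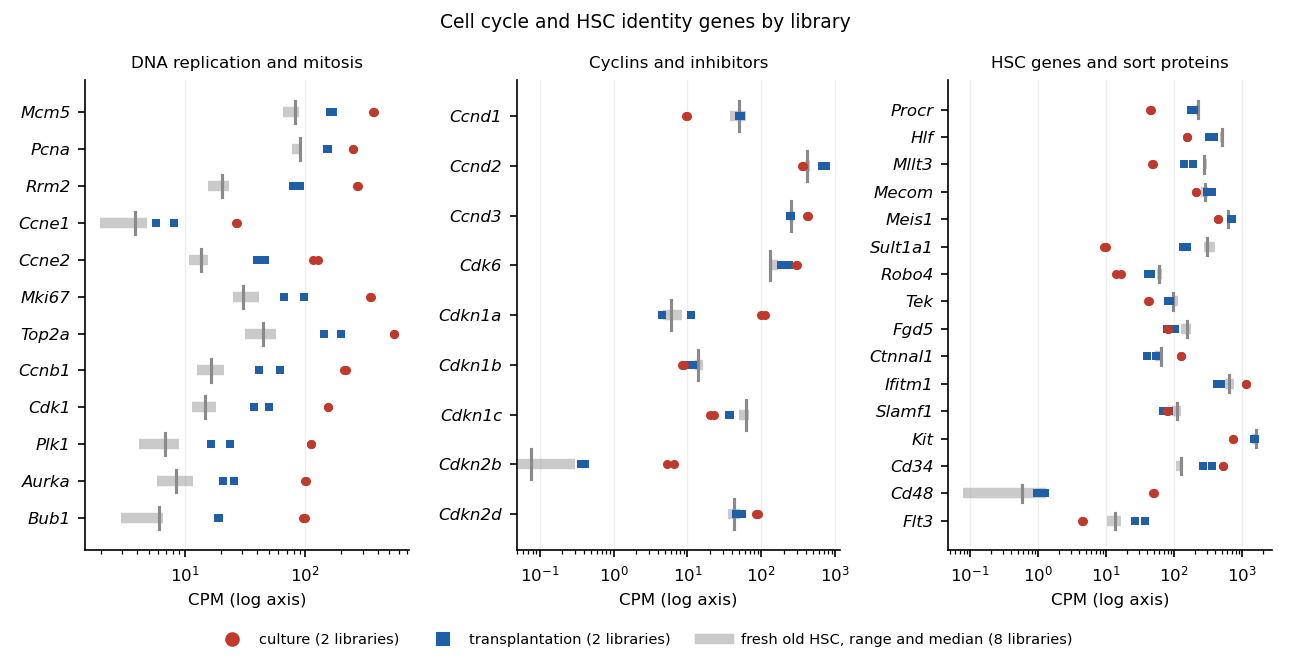
Levels in CPM on a log axis, 1 gene a row, with each cultured library as a red point, each transplanted library as a blue square, and the range and median of the 8 fresh old libraries as a grey bar and tick. In replication and mitosis genes the order is fresh, transplanted, cultured from left to right, whereas Procr, Hlf, Mllt3, Sult1a1 and Robo4 lie lowest in culture and Cd48 lies near 49.2 CPM in culture against 1.11 CPM after transplantation.

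MHC genes had no member higher and 12 of 16 lower in culture, at a median of -1.03. The class II genes changed most. H2-Aa, an alpha chain, was at 0.741 and 0.450 CPM in culture and at 129 and 169 CPM after transplantation (245-fold lower, log2 -7.94 ± 0.23, adjusted p = 5.71e-07), the beta chain gene H2-Eb1 was at 1.48 and 0.901 against 67.4 and 99.2 CPM (68.8-fold lower, adjusted p = 1.55e-05), and Cd74, the invariant chain, at 3.38 and 5.21 against 367 and 503 CPM (102-fold lower, adjusted p = 3.56e-04). Ciita, which switches on class II genes, was at 0.889 and 0.619 against 9.23 and 11.5 CPM (13.6-fold lower). H2-Ab1, the partner of H2-Aa, was at 40.3 and 36.4 CPM in culture against 164 and 209 CPM (4.85-fold lower). In the 8 fresh libraries these genes were expressed as well, with a lowest, median and highest level of 71.0, 153 and 214 CPM for H2-Aa and of 147, 355 and 553 CPM for Cd74.

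Class I genes differed less. B2m, the light chain, was at 1319 and 1416 CPM in culture and at 2540.0 and 2656 CPM after transplantation (1.90-fold lower, adjusted p = 1.05e-06), H2-K1 at 1215 and 1235 against 2114 and 2170.2 CPM (1.75-fold lower) and H2-T23 at 184 and 197 against 527 and 529 CPM (2.77-fold lower). H2-D1 did not pass the fold threshold, at 2054 and 2029 against 2973 and 3036 CPM, nor did the peptide transporter genes Tap1 and Tap2. Several H2 genes are close in sequence, and the handling of shared reads is not stated, so their single values are uncertain. With shRNA1, 12 of 16 MHC genes were lower and with shRNA2 9 of 16.

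Interferon response genes were lower in 19 of 36 cases and higher in 3, at a median of -0.73, and in the fit of all 12 shRNA libraries 9 were lower and 1 higher. Gbp3 and Gbp2, guanylate-binding proteins, were at 20.5 and 19.7 against 115 and 122 CPM (5.88-fold lower, adjusted p = 5.14e-08) and at 24.3 and 29.5 against 123 and 133 CPM (4.77-fold lower). Iigp1, an immunity-related GTPase, was at 47.3 and 45.0 against 194 and 249 CPM (4.795-fold lower). Ifit3, the gene whose response element is printed above, was at 1.43 and 1.63 against 4.83 and 5.62 CPM (3.41-fold lower, a call lost in the fit of all 12 shRNA libraries, adjusted p = 0.389). Isg15, Irf7, Stat2 and Oas1a were not called, and Ifi27l2a was higher, at 7.85 and 7.60 against 1.90 and 1.82 CPM (4.15-fold higher). With shRNA1, 21 of 36 members were lower and 2 higher, at a median of -0.83, whereas with shRNA2 1 was lower and 2 higher, at a median of 0.16. For the list as a whole this difference between shRNAs was not tested. Against fresh OHSCs, 18 of 36 were lower and 3 higher in culture (all genes: 36.5% lower), and 2 were lower and 5 higher after transplantation (all genes: 27.9% lower).

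Genes of NF-kB signalling gave 4 of 25 higher and 3 lower, which is near the share of all genes (12.6% and 15.2%), and the cultured libraries differed from each other in them. Without the first cultured library 9 were higher and 1 lower, and without the second 5 were lower. With no filter on low counts 8 of 26 were higher, and in the fit of all 12 libraries 7. Nfkbia, which encodes the feedback inhibitor of NF-kB, was at 68.3 and 176 CPM in the cultured libraries, Tnfaip3 at 20.3 and 58.2 CPM, Nfkbiz at 12.6 and 50.6 CPM and the chemokine gene Cxcl2 at 1.48 and 9.18 CPM, so that the second library lay above the first by more than 2-fold in all 4. None of them was called. Nfkb1 was at 275 and 258 against 127 and 127 CPM (2.10-fold higher, adjusted p = 9.50e-07).

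Cytokine receptor genes showed changes in both directions, with 8 of 24 higher and 7 lower, and 5 of 19 higher with at least 10 CPM in 2 libraries. Csf2rb, the beta chain gene shared by the IL-3, IL-5 and GM-CSF receptors, was higher in culture, at 87.3 and 84.9 CPM against 14.3 and 9.22 CPM after transplantation (7.30-fold higher, adjusted p = 2.19e-05). Its near-identical copy Csf2rb2, a beta chain gene of the IL-3 receptor alone, was also higher, at 31.5 and 30.2 against 8.80 and 5.29 CPM, a pair between which reads may be split. Lifr, the receptor of LIF, was at 10.1 and 10.0 against 1.04 and 0.354 CPM (14.2-fold higher, log2 3.83, with 4.81 without the first transplanted library). Osmr, the receptor of oncostatin M, was at 7.09 and 6.75 against 1.35 and 1.32 CPM (5.17-fold higher, a call lost in the fit of all 12 shRNA libraries, adjusted p = 0.0862). Epor, the receptor of erythropoietin, was at 23.3 and 22.7 against 8.21 and 10.5 CPM (2.46-fold higher). Il6ra was lower, at 2.32 and 2.31 against 7.54 and 6.84 CPM (3.10-fold lower), as was Ifngr1, the interferon gamma receptor, at 98.0 and 99.5 against 172 and 145 CPM (1.60-fold lower), which fell under the fold threshold without the first transplanted library (log2 -0.55).

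STAT5 target genes were higher in 5 of 12 cases with none lower, at a median of 0.65, and in 8 without the first transplanted library. Pim2, a survival kinase gene, was at 1031 and 1021 CPM in culture and at 106 and 77.2 CPM after transplantation (11.2-fold higher, log2 3.48 ± 0.17, adjusted p = 1.11e-04), and Cish, the feedback inhibitor, at 99.8 and 109 against 68.3 and 56.7 CPM (1.67-fold higher). Socs2, also a feedback inhibitor, was at 145 and 137 against 56.1 and 62.7 CPM (2.38-fold higher). Id1, an inhibitor of basic helix-loop-helix factors, was at 70.0 and 73.2 against 2.98 and 2.73 CPM (25.01-fold higher, adjusted p = 1.55e-08), and its relatives Id3 and Id2 were at 56.8 and 57.9 against 1.08 and 1.27 CPM (48.9-fold higher, adjusted p = 1.55e-08) and at 83.0 and 81.3 against 19.2 and 22.5 CPM (3.94-fold higher). In fresh OHSCs Id1 and Id3 were lower than after transplantation, with a lowest, median and highest level of 0.776, 1.42 and 2.55 CPM and 0.397, 0.651 and 0.893 CPM. For both genes, both transplanted libraries lay above the highest fresh one. Socs3 was not called, at 54.0 and 54.9 CPM in culture and 22.9 and 7.80 CPM in the transplanted libraries, which lay apart.

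Feedback genes of the MAPK pathway, which acts downstream of c-Kit, had 4 of 13 members lower and 3 higher, and 5 higher with no filter on low counts. Dusp6, the ERK phosphatase gene, was at 28.7 and 24.8 CPM in culture and at 146 and 134 CPM after transplantation (5.22-fold lower, adjusted p = 2.01e-07), and Spry1 at 16.9 and 14.8 against 32.9 and 32.0 CPM (2.04-fold lower). Target genes of FOXO factors, which are active when PI3K signalling is low, were lower in 7 of 19 cases and higher in 1 (in 2 without the first library of either group), at a median of -0.45. Txnip, which restrains glucose uptake, was at 182 and 178 against 949 and 1135 CPM (5.77-fold lower, adjusted p = 4.03e-07), and Pik3ip1, an inhibitor of PI3K, at 88.5 and 89.0 against 241 and 195 CPM (2.46-fold lower). Klf2 was the member higher in culture, at 5.53 and 4.95 against 1.17 and 0.734 CPM (5.46-fold higher).

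TGF-beta target genes, the Id genes among them, had 5 of 15 members higher and 5 lower, and with shRNA1 5 higher and 2 lower and with shRNA2 7 higher and 2 lower. Smad7, the inhibitory Smad, was at 4.25 and 3.24 CPM in culture and at 11.1 and 11.2 CPM after transplantation (2.96-fold lower, adjusted p = 1.87e-04) and Skil at 12.5 and 14.6 against 35.1 and 35.7 CPM (2.62-fold lower). Immediate early genes were higher in 9 of 20 cases and lower in 2, at a median of 0.79. With no filter on low counts 12 of 22 were higher, and with at least 10 CPM in 2 libraries 6 of 14. Jund was at 241 and 240.1 against 65.2 and 67.9 CPM (3.62-fold higher, adjusted p = 4.72e-08) and Egr1 at 27.6 and 36.3 against 66.6 and 94.7 CPM (2.53-fold lower, adjusted p = 0.00320), while Fos, Jun, Junb and Ier2 were not called.

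Adhesion and homing genes were lower in 10 of 26 cases and higher in 5. Vcam1, an adhesion receptor that marks HSCs as self in the marrow, had no read in either cultured library and was at 2.53 and 3.80 CPM after transplantation, at least 79.2-fold lower in culture against a floor of 3 reads over both cultured libraries. Itga4, whose product pairs with beta integrins to bind VCAM-1, was at 88.0 and 86.3 against 175 and 155 CPM (1.89-fold lower, adjusted p = 1.16e-05). Jam2 was at 19.3 and 19.8 against 44.7 and 47.3 CPM (2.35-fold lower, a call lost in the fit of all 12 shRNA libraries, adjusted p = 0.0533). Cxcr4, the receptor that retains HSCs in the marrow, was not called, at 10.2 and 11.1 against 7.49 and 7.85 CPM. Itga6 and Cd9 were among the members higher in culture, and Cd9 fell under the fold threshold without the second transplanted library (log2 down to 0.57 over the alternatives).

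Of 12 imprinted genes tested, 7 were higher in culture than after transplantation and 2 lower, at a median of 0.99. Without the first cultured library 6 of 12 were higher, without the second 6 of 13, and with at least 10 CPM in 2 libraries 4 of 7. Dlk1, a growth regulator of the Dlk1 and Meg3 domain, was at 33.0 and 26.01 CPM in culture and at 0.0451 and 0.354 CPM after transplantation (152-fold higher, log2 7.24 ± 0.42, adjusted p = 1.27e-05). Its log2 fold change was 6.36 without the first transplanted library and 9.26 without the second. Fresh OHSCs had a lowest, median and highest level of 10.2, 19.6 and 42.3 CPM. Meg3, the long noncoding RNA of that domain, was at 5.73 and 6.36 against 0.180 and 0 CPM (adjusted p = 9.55e-05), with 30.6, 39.3 and 55.3 CPM in fresh OHSCs. Peg3 had no read in either transplanted library and was at 3.95 and 3.32 CPM in culture, at least 102-fold higher, with 2.12, 3.61 and 8.06 CPM in fresh OHSCs. Ndn was at 36.1 and 36.7 against 17.8 and 9.67 CPM (2.64-fold higher, adjusted p = 0.00618, and up to 0.0649 without either cultured library) with 74.1, 84.4 and 89.4 CPM in fresh OHSCs. Igf2r was lower in culture, at 11.2 and 9.74 against 32.8 and 40.6 CPM (3.496-fold lower, adjusted p = 1.21e-05). Against fresh OHSCs, 9 of 15 members were lower after transplantation with none higher (all genes: 27.9% lower), and 7 were lower and 3 higher in culture (all genes: 36.5% lower). Of 4 nuclear-retained RNAs tested, Meg3 among them, 2 were higher and 1 lower, with 1 higher without the second cultured library and 1 higher and 2 lower without the second transplanted one. With at least 10 CPM in 2 libraries none of 3 was higher. The lower one was Malat1, at 1112 and 1111 CPM in culture and at 3976 and 3498 CPM after transplantation (3.36-fold lower, adjusted p = 1.71e-07).

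Genes of the HSC aging signature list were lower in culture in 16 of 35 cases and higher in 6, at a median of -0.46. The members do not all rise with age, since the paper reports lower Lmna, a member, in old HSCs. Ramp2, a partner of the calcitonin receptor-like receptor, was at 0.889 and 1.24 CPM in culture and at 8.30 and 8.86 CPM after transplantation (8.09-fold lower, adjusted p = 1.64e-05), against a lowest, median and highest level of 31.0, 47.5 and 66.2 CPM in fresh OHSCs. Cyp26b1, which degrades retinoic acid, was at 1.23 and 2.25 against 10.5 and 20.3 CPM (8.88-fold lower, adjusted p = 8.54e-04). Enpp5 was at 102 and 104 against 315 and 313 CPM (3.06-fold lower, adjusted p = 5.84e-08), and Gpr183, an oxysterol receptor gene, at 3.06 and 4.45 against 13.6 and 38.8 CPM (7.00-fold lower, adjusted p = 0.0362) with 80.5, 119 and 126 CPM in fresh OHSCs. The call of Gpr183 was lost without either cultured library (adjusted p up to 0.330), and its log2 fold change was -1.87 without the second transplanted library against -2.81 with it. Selp, P-selectin, was higher, at 455 and 443 against 299.9 and 269 CPM (1.58-fold higher, and log2 0.58 without the second transplanted library, under the fold threshold), as were Ehd3 and the metallothionein genes. Clu and Vwf were not called, and their transplanted libraries lay apart, Clu at 29.2 and 66.5 CPM against 219.5 and 216 CPM in culture and Vwf at 211 and 386 CPM against 502 and 511 CPM. In fresh OHSCs Clu had 191, 219 and 269 CPM and Vwf 511, 675 and 798 CPM. Against fresh OHSCs, 23 of 35 members were lower and 3 higher in culture (all genes: 36.5% lower), and 26 were lower and 1 higher after transplantation (all genes: 27.9% lower). With shRNA1 the list had 7 lower and 5 higher (all genes: 13.4% and 11.1%), and with shRNA2 8 lower and 10 higher (all genes: 13.9% and 12.2%).

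**Figure D5:**
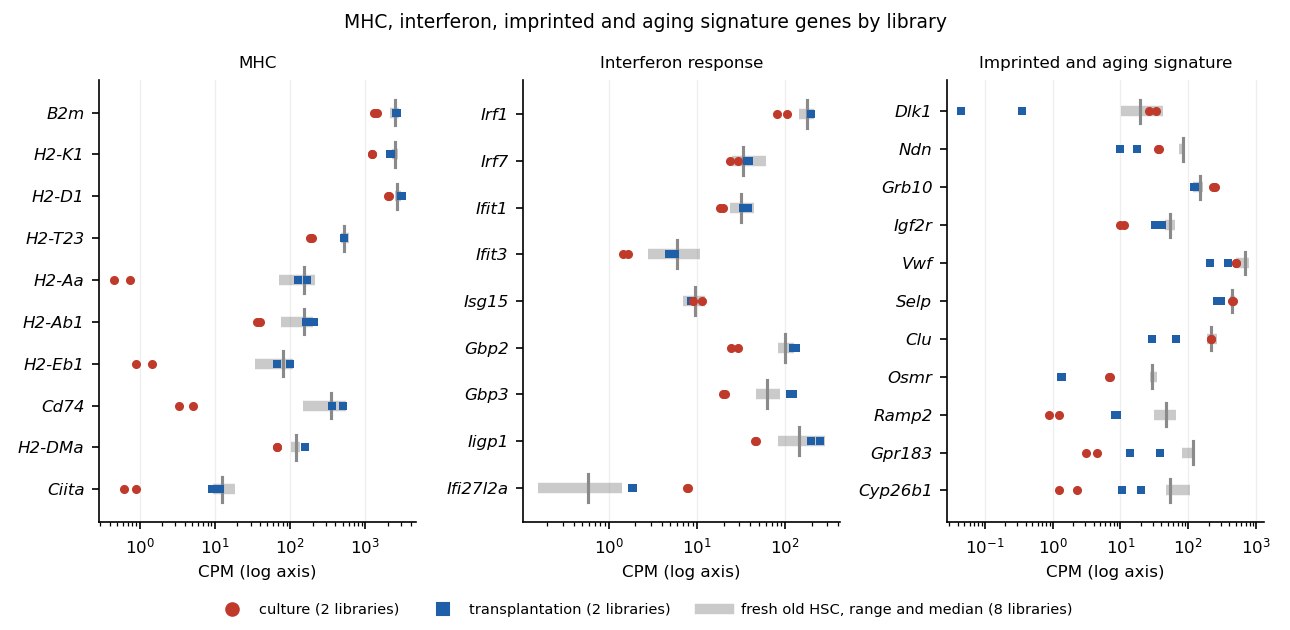
Levels in CPM on a log axis, 1 gene a row, with each cultured library as a red point, each transplanted library as a blue square, and the range and median of the 8 fresh old libraries as a grey bar and tick. H2-Aa, H2-Eb1, Cd74 and Ciita are lowest in culture and level between transplanted and fresh cells, Dlk1 is level between cultured and fresh cells and lowest after transplantation, and Ramp2, Gpr183 and Cyp26b1 lie below the fresh range in both.

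Megakaryocyte genes, which part of the old HSC pool is known to express, were higher in 6 of 23 cases and lower in 2 (all genes: 12.6% higher and 15.2% lower). With at least 10 CPM in 2 libraries none of 17 was lower. Pf4, platelet factor 4, was at 289.7 and 313 CPM in culture and at 35.6 and 42.2 CPM after transplantation (7.76-fold higher, log2 2.96 ± 0.08, adjusted p = 6.31e-08), against 17.3, 19.4 and 44.0 CPM as the lowest, median and highest level in fresh OHSCs. Itga2b, the integrin CD41, was at 506 and 500.3 against 145 and 130.5 CPM (3.65-fold higher, adjusted p = 8.14e-08), Plek at 190.1 and 202 against 77.7 and 73.2 CPM (2.60-fold higher) and Rab27b at 117 and 122 against 45.4 and 55.6 CPM (2.36-fold higher). Nfe2, a transcription factor of platelet formation, was not called, at 606 and 595 against 609 and 617 CPM, nor were Gata1, Gp5 and Gp9. The summed level of the list was 4223 and 4229 CPM in culture, 2844 and 2996 CPM after transplantation, and 4110.4 to 4388 CPM in fresh OHSCs.

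Several granulocyte markers were found in the transplanted libraries and had no read in culture. Mpo, myeloperoxidase, and the neutrophil granule genes S100a8 and Ngp had no read in either cultured library, and were at 34.2 and 1.11, 30.8 and 1.72 and 27.6 and 1.11 CPM in the transplanted ones, so that the first transplanted library lay far above the second. None of them was called. Of the list, 4 of 21 members were lower and 2 higher (all genes: 15.2% and 12.6%), at a median of -1.29. The count depended on the setting. Without the second cultured library 2 were lower, without the first transplanted library 7 were lower and 4 higher, and without the second transplanted library 16 were lower. In the DESeq2 Wald test 10 were lower, with the replicate block 11, with no filter 16 of 28 and with at least 10 CPM in 2 libraries 1 of 5. The lysozyme gene Lyz2 was at 228 and 227 against 462 and 436 CPM (1.97-fold lower, adjusted p = 9.44e-07). Prtn3, a granule protease that HSC preparations also express, was not called, at 164 and 170.2 against 219 and 173 CPM. The summed level of the list was 550.0 and 550.0 CPM in culture and 1081 and 780.1 CPM after transplantation, the larger of which belonged to the first library. Without that library, the counts were 25 of 25 cholesterol genes higher, 30 of 30 mitosis genes higher, 18 of 32 long-term HSC genes lower, 12 of 16 MHC genes lower and 18 of 36 interferon response genes lower. The second transplanted library also held granulocyte mRNA, so these counts do not remove it, and its part in the results was not tested.

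Globin mRNA marked the other transplanted library. Hba-a1, an alpha globin gene, had no read in culture and was at 0.587 and 8.76 CPM after transplantation, and Hbb-bs was at 9.06 and 8.92 against 3.18 and 21.4 CPM, and neither was called. Hbb-bt, the other adult beta globin gene, was at 94.8 and 96.8 against 15.5 and 28.0 CPM and was called higher in culture (4.42-fold higher, adjusted p = 0.00618). That call was lost without either cultured library (adjusted p up to 0.0780). The beta globin genes are near-identical, so the split of reads between them is uncertain. Of 18 erythroid genes tested 4 were higher and 5 lower (all genes: 12.6% higher and 15.2% lower), and 1 was lower without the second cultured library, 8 of 23 with no filter and 2 of 11 with at least 10 CPM in 2 libraries. Tfrc, the transferrin receptor of cells that take up iron, was at 116 and 116 against 26.96 and 24.99 CPM (4.45-fold higher, adjusted p = 1.13e-07), and Car2, a carbonic anhydrase, at 518 and 510.0 against 1200.1 and 1586 CPM (2.71-fold lower).

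Markers of lymphoid cells were mostly too low to test. Of 17 B cell genes 12 and of 17 T and NK cell genes 13 did not pass the filter on low counts, and Cd3e, Ms4a1 and Pax5 had no read in any of the 4 libraries, which allows at most 0.0395 CPM in culture and 0.0358 CPM after transplantation at 3 reads over a group, for counting error only. Of 5 B cell genes tested 3 were lower and none higher, and of 4 T and NK cell genes 1 was lower and 1 higher (all genes: 12.6% higher and 15.2% lower). The lower one, Klrb1c, which encodes the receptor NK1.1, was at 0.123 and 0.141 CPM in culture and at 9.75 and 12.4 CPM after transplantation (82.2-fold lower, log2 -6.36 ± 0.31, adjusted p = 9.22e-07), and fresh OHSCs had a lowest, median and highest level of 46.6, 61.9 and 70.3 CPM. Of 8 lymphoid priming genes tested 4 were lower and none higher, and 7 were lower and 1 higher without the second transplanted library. Among mast cell genes, where 10 of 24 were not tested, 2 of 14 were higher, Gzmb among them, and 4 lower (all genes: 12.6% higher and 15.2% lower). With at least 10 CPM in 2 libraries 2 of 6 were higher and 2 lower. Rgs1 was lower, at 18.7 and 23.3 against 198 and 167 CPM (8.71-fold lower, adjusted p = 1.06e-06), and the granule genes Cma1, Mcpt4 and Tpsb2 had no read in any of the 4 libraries. Of 7 dendritic cell genes tested 4 were lower and 1 higher, with 2 lower and none higher without the first cultured library and 2 lower without the second transplanted one. Without the second cultured or the first transplanted library none was higher. Of 3 eosinophil genes 1 was lower, and none without the second transplanted library.

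Stromal and endothelial genes gave 2 of 9 higher and 3 lower (all genes: 12.6% higher and 15.2% lower), and with at least 10 CPM in 2 libraries none of 3 higher and 1 lower. Sparc, a matrix protein gene, was at 6.22 and 5.12 CPM in culture and at 0.451 and 0.557 CPM after transplantation (11.2-fold higher, adjusted p = 2.00e-05), and Emcn, which marks endothelium and HSCs, at 6.52 and 7.37 against 30.01 and 23.6 CPM (3.87-fold lower). The niche chemokine gene Cxcl12 had no read in culture and was at 0.451 and 0.608 CPM after transplantation, at least 13.3-fold lower in culture, a call lost in the fit of all 12 shRNA libraries (adjusted p = 0.0711). Adipoq, Col3a1 and Bglap were not tested.

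Genes of metal and redox handling were higher where they changed most. Mt1 and Mt2, metallothioneins that bind zinc, were at 617 and 670.3 against 50.4 and 71.7 CPM (10.6-fold higher, adjusted p = 3.98e-04) and at 151 and 171 against 6.68 and 9.75 CPM (19.7-fold higher), with 3 of 6 members of their list higher. NRF2 and glutathione genes were higher in 7 of 20 cases and lower in 3, and the lower ones, Gstm1 at 147 and 155 against 316 and 337 CPM (2.16-fold lower), Gsta4 and Osgin1, include glutathione transferases that detoxify electrophiles. Hmox1, which degrades haem, was at 19.9 and 33.1 against 7.22 and 7.27 CPM (3.65-fold higher, adjusted p = 3.91e-04, and up to 0.119 without either transplanted library). Selenoprotein genes were higher in 4 of 16 cases (all genes: 12.6% higher and 15.2% lower) and lower in 1 (in 2 without the first transplanted library), Selenop, at 126 and 133 against 237 and 246 CPM (1.87-fold lower), and iron handling genes were higher in 5 of 13 with none lower, and in 3 without the first transplanted library.

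Among the 12 genes of largest fold change in each direction, several stood in no list above. Plekhh2 had no read in either transplanted library and was at 5.46 and 5.35 CPM in culture, at least 151-fold higher. Gzmb, granzyme B, known from cytotoxic cells and held by the mast cell list, was at 25.98 and 31.7 CPM in culture and at 0.0451 and 0 CPM after transplantation, a ratio of 1201 (95% counting interval 332 to 9925). Lipg, an endothelial lipase gene, was at 8.15 and 7.32 against 0 and 0.0506 CPM, a ratio of 325 (89.6 to 2692). Cdr2 was at 5.28 and 6.08 against 0 and 0.0506 CPM, a ratio of 237 (65.2 to 1964). All transplanted reads of each of these 3 genes were in 1 library, and leaving out 1 transplanted library moved their fitted log2 fold changes, which are no bounds, between 9.22 and 13.12 for Gzmb, 7.16 and 11.28 for Lipg and 6.72 and 10.83 for Cdr2. Lilr4b and Lilrb4a, near-identical genes of an inhibitory receptor of myeloid cells, were at 125 and 147 against 0.632 and 0.0253 CPM and at 111 and 122 against 0.677 and 0.127 CPM (adjusted p = 2.07e-04 and 3.38e-06), with the division of reads between them uncertain. Enah, an actin regulator gene, was at 38.7 and 40.6 against 1.196 and 0.253 CPM (53.0-fold higher, adjusted p = 1.56e-04). Its log2 fold change of 5.73 became 7.27 without the first transplanted library and 5.05 without the second. Adm, the adrenomedullin gene of the hypoxia list, and March11 were also among the largest increases, at 6.27 and 6.98 against 0.0902 and 0 CPM and at 6.10 and 6.56 against 0.0451 and 0.0506 CPM. Gzmb and Plekhh2 were low in fresh OHSCs too, at 0.0361, 0.113 and 0.236 CPM and 0.577, 0.816 and 1.64 CPM.

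On the side of the largest decreases, Edar, a receptor of the TNF family, was at 0.395 and 0.0563 CPM in culture and at 13.2 and 12.7 CPM after transplantation (54.5-fold lower, log2 -5.77 ± 0.43, adjusted p = 1.70e-05). Its log2 fold change was -7.76 without the first cultured library and -5.02 without the second. Fresh OHSCs had a lowest, median and highest level of 13.6, 15.6 and 18.8 CPM. Cd86, a costimulatory ligand of T cells, was at 0.346 and 0.113 against 5.17 and 5.42 CPM (22.3-fold lower, adjusted p = 3.54e-05). Its log2 fold change of -4.48 became -5.51 without the first cultured library. Slamf8 was at 0.444 and 0.0281 against 5.66 and 6.25 CPM (23.9-fold lower, log2 -4.58, which became -7.57 without the first cultured library and -3.73 without the second) and Gbp10 at 0.0988 and 0 against 5.55 and 4.53 CPM. Synpo2, Smtnl1 and Naaladl2 were at 4.92 and 7.17, 7.74 and 3.65 and 4.06 and 8.58 CPM after transplantation and at 0.247 and 0.225, 0.296 and 0.0563 and 0.370 and 0.197 CPM in culture. Insm1 differed between the transplanted libraries, at 1.85 and 8.91 CPM, against 0.0494 and 0 CPM in culture, a ratio of 197 (95% counting interval 54.2 to 1630.5), and its call was lost without either cultured library (adjusted p up to 0.155).

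Btaf1, the gene whose short variant the other shRNAs target, was at 145 and 148 CPM in culture and at 153 and 158 CPM after transplantation (log2 -0.08 ± 0.05, adjusted p = 0.209), and was not called. The counts sum all transcripts of a gene, so that the short variant cannot be read from them. In the same contrast with the other shRNAs, Hmgcs1 differed by log2 4.43 with shRNA1 and 4.17 with shRNA2, Slc16a3 by 5.77 and 5.55, Procr by -2.12 and -2.17, and H2-Aa by -6.89 and -5.82. Not every gene repeated its difference. Abca1 differed by log2 -1.92 with the control and by -0.10 and 0.02 with shRNA1 and shRNA2. Insm1, among the largest decreases with the control, was not tested with shRNA1 and was not called with shRNA2 (log2 0.82).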

How the data were processed

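PolyA RNA-seq libraries of the control shRNA groups were analysed as 2 cultured against 2 transplanted samples, grouped by their labels alone, with shRNA1 and shRNA2 libraries and 8 fresh old libraries beside them. The authors deposited whole-number counts of reads for 55376 genes, made with featureCounts on GENCODE M22 after adapter trimming (Trim Galore, cutadapt) and STAR alignment to mm10. The strand setting and treatment of multimapping reads were found in no source used, so antisense, overlapping and near-identical genes are uncertain. From the fresh libraries the rows of spike-in RNA, numbering 92 and holding 6.048 to 6.932% of reads, were left out.

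Counts were fitted with edgeR 4.0.16 in R 4.3.3 (filterByExpr, TMM, robust quasi-likelihood F test, 2 residual degrees of freedom), with Benjamini-Hochberg adjustment over all genes tested. The SE was the log2 fold change divided by the square root of F. DESeq2 1.42.0 served for alternatives, and the fits were tested on simulated data. The fresh contrasts used a fit of 3 groups, and CPM values were scaled to the control libraries. Columns of per-sample values not assigned to a sample numbered 0.

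Named genes were the 12 called genes of largest fold change in each direction with groups that do not overlap and at least 5 CPM in the higher group, key members and up to 3 called members each way of 45 gene lists (834 genes), and Btaf1. A few genes that meet this rule are not reported here. Other members and checks named in the text were chosen after their values were seen. The members and lists were chosen with earlier results of these data known. For genes with no read in a group, a fold was computed against 3 reads over that group. With 1 to 3 reads, the ratio is given with an exact 95% interval, and both cover counting error only. The replicate numbers are shared by the groups, but the correlation of their deviations was -0.003 over 19518 genes, so they do not pair the samples. Python 3.11.15 with pandas 2.3.3, scipy 1.17.1 and matplotlib 3.10.9 was used for counts of lists and plots. Alternatives were another normalization, tool, filter, sample set, gene set, depth, replicate block and threshold, and leaving out each library. A fit without 1 library leaves 1 in its group, so that calls and p-values there rest on the spread of the other group alone.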

Additional observations from a re-analysis of the deposited data

Results flagged for a closer look

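For 12 genes named above, the difference between culture and transplantation with the control shRNA was not the same as its mean over shRNA1 and shRNA2, by an interaction test in edgeR over 12 libraries and 21443 genes, chosen after seeing the data (193 with an adjusted p below 0.05). Each value below is the control contrast minus the mean of the others, on the log2 scale. It was more positive in the control for Cd48 (2.38, adjusted p = 0.00211), Socs2 (0.95, adjusted p = 0.00946) and Tfrc (0.93, adjusted p = 9.06e-04). Among them, Cd48 differed by 5.45 with the control, 2.91 with shRNA1 and 3.21 with shRNA2, so it was higher in culture with all 3. It was more negative in the control for the sterol efflux genes Abca1 (-1.90, adjusted p = 0.0180) and Abcg1 (-0.77, adjusted p = 0.00211). Abca1 differed by -1.92 with the control, -0.10 with shRNA1 and 0.02 with shRNA2. Likewise more negative were Skil (-1.90, adjusted p = 7.57e-04), Id3 (-2.15, adjusted p = 0.00426), Hmox1 (-1.32, adjusted p = 0.0292), Cyp26b1 (-2.60, adjusted p = 0.0237), Sult1a1 (-0.88, adjusted p = 0.0158), Ankrd37 (-0.60, adjusted p = 0.0253) and Insm1 (-8.77, adjusted p = 0.0471), the last with at most 2 reads in the cultured controls. Causes were not tested.

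Among 23 genes whose fresh levels were printed, 3 had 1 of the 8 fresh libraries apart from the others by a gap above the 95% critical value of Dixon's test, which chance alone gives in about 1 of 20 genes: Ndn at 74.1 CPM in its lowest library, Peg3 at 8.06 CPM in its highest and Plekhh2 at 1.64 CPM in its highest.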

How the results depend on the processing

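Counts of genes higher and lower in culture stayed within 1.5 times of 2458 and 2976 under DESeq2 size factors (2507 and 2929), the DESeq2 Wald test (2284 and 2599), no filter (2729 and 3351), a fit of all 12 shRNA libraries (2436 and 2991), nuclear protein-coding genes (1773 and 2055), thinning to the smallest library (2473 and 2983) and an adjusted p below 0.01 (1962 and 2220). With the replicate block they were 2422 and 2908, and since the numbers do not pair the samples this is given only as a value. They moved by more with at least 10 CPM in 2 libraries (1332 and 1523), which tests fewer genes, a fold above 2 (1481 and 1883) and a test against a fold of 1.5 (1502 and 1622). With a fold above 1.2 the higher count moved (4150), and the lower one stayed within 1.5 times (4399). Leaving out each library gave 1958 to 2714 higher and 2303 to 3098 lower. The counts of the shRNA1, shRNA2 and fresh comparisons moved by less than 1.5 times with DESeq2 size factors, an alternative chosen after seeing the data, as were the counts of gene lists under each alternative.

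Of 164 called genes in the text, none changed sign and 16 lost the call under at least 1 of 12 alternatives. In the fit of all 12 libraries these were Cxcl12, Ifit3, Jam2 and Osmr. Over 2436 pairs of a gene and an alternative, 29 lost a call, 56 gained one and 10 turned sign. The genes that turned sign were all uncalled. Without 1 library, log2 fold changes ran from -0.028 to 0.113 for Abcg1, -0.062 to 0.201 for Ddx3y, -0.334 to 0.052 for Fgd5, -1.254 to 1.5 for Hbb-bs, -0.047 to 0.040 for Mdm2, -1.041 to 0.323 for Nfkbia, -0.052 to 0.207 for Slamf1, -0.507 to 1.009 for Tnfaip3 and -0.109 to 0.044 for mt-Co2, and Hbb-bs was at 0.029 with the replicate block. The spread between 2 libraries a group limits every value. Thinning only brought the libraries to 1 depth, and values of genes with few reads in a group are limited by depth.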
